A study of Homo sapiens with 2 samples.

Results

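The nuclear genes for subunits of the mitochondrial respiratory chain and ATP synthase were examined in 2 cultures that carry the label HepG2, a line from a human liver tumour. The genes were selected by symbol from the 50868 genes of the deposited count table: the NDUFA, NDUFB, NDUFC, NDUFS and NDUFV families, SDHA to SDHD, the UQCR family, CYC1, COX4 to COX8 with at most 1 letter and 1 digit after them, and the ATP5F, ATP5M and ATP5P families. Of 137 rows that matched, 54 pseudogenes were removed, which left 83 genes: 36 of complex I, 4 of complex II, 10 of complex III, 15 of complex IV and 18 of complex V. NDUFA4 was counted with complex IV, where its protein is found. Resistant cells had been kept in sorafenib, a multikinase inhibitor, starting at 2.5 µM and going up in steps of 0.5 µM to 7 µM. Parental cells were untreated. Both were grown in DMEM with fetal bovine serum, and mRNA was sequenced from 1 library of each, so no difference has a replicate check and no test between the conditions was made. Intervals given with folds are 95% Clopper-Pearson intervals of the ratio of 2 counts, and they cover counting error only.

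The respiratory chain passes electrons from NADH and succinate to oxygen and pumps protons across the inner mitochondrial membrane, and ATP synthase uses the returning protons to make ATP. Complex I oxidises NADH, complex II oxidises succinate in the tricarboxylic acid cycle, complex III passes electrons from ubiquinol to cytochrome c, complex IV reduces oxygen, and complex V is ATP synthase. All but complex II combine subunits made from nuclear genes with subunits made inside the mitochondrion, and the nuclear genes are known to be controlled in part by the transcription factors NRF1 and GABPA, a member of the ETS family.

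The libraries held 16811907 counts in resistant cells and 18067146 counts in parental cells, with counts in 21742 and 21623 genes. The mitochondrial genome took 6.91% of the counts in resistant cells and 7.37% in parental cells. None of 12 hepatocyte markers was measured in either library: they had 4 counts in total in resistant and 3 in parental cells, and 10 of them, among them ALB, AFP, APOA1, APOB and GPC3, were at 0 in both. The names resistant and parental therefore stand for the libraries so labelled. Of markers of other cells, the 6 of simple epithelium summed to 4005 CPM in resistant and 3238 CPM in parental cells, nearly all from KRT7, KRT8 and KRT18. EPCAM was at 0 in both, KRT19 at 0.716 and 0.773 CPM, and CDH1 at 1.19 and 0.276 CPM. The 6 fibroblast markers summed to 370 and 369 CPM, with COL1A2 and PDGFRA at 0 in both. The 6 muscle markers summed to 7.93 and 7.95 CPM, with MYH7 and MYL2 at 0 in both. The 6 blood markers summed to 9.31 and 5.41 CPM, all from CD68, and the 4 endothelial markers to 4.71 and 1.82 CPM, with KDR at 0 in both. The part of these markers in the ratios below was not tested. In bulk RNA, fewer cells of a type and less RNA per cell cannot be told apart.

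Counts are given as deposited, and levels as CPM, counts relative to library size scaled with TMM factors. Genes with at least 1 CPM in either library were called measured. Of the 83 subunit genes, 77 were measured: all of complexes I, II and III, 10 of 15 in complex IV and 17 of 18 in complex V. The log2 ratio is that of CPM plus 1, resistant over parental. Folds are ratios of CPM without that pseudocount. A log2 ratio of 0.322 or more in size, in either direction, is called the small limit. The rule that selected the genes works on symbols and used no measured value, but the genes were chosen with earlier results of these data known.

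The summed mRNA of the nuclear subunit genes stood at nearly the same level in both libraries. The 83 genes summed to 126549 counts in resistant cells, against 136351 counts in parental cells, which is 0.753% and 0.755% of each library. The fold of the summed CPM was 1.003, with an interval of 0.996 to 1.01. Of the 77 measured subunits, 40 had a log2 ratio above 0 and 37 below 0, and the median was 0.00. With DESeq2 size factors 34 were above 0. Over all 14686 measured genes, 49.7% had a ratio above 0 and 50.3% below 0, and the median was also 0.00. No subunit passed a 2-fold difference, against 2.3% of all measured genes. The small limit was passed by 7 subunits, which is 9.09% of the 77, against 23.7% of all measured genes. UQCR10, UQCRB, ATP5MC2, NDUFA12 and NDUFV1 were higher in resistant cells, which is 6.49% against 12.6% of all genes, and ATP5F1A and NDUFA13 were lower, which is 2.60% against 11.1%.

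The ratios of the subunits were also packed more closely than those of all measured genes. Their median absolute log2 ratio was 0.08, against 0.16 over all measured genes and 0.13 over the 10403 genes with at least 10 CPM. The middle range, from the lower to the upper quartile, ran from -0.08 to 0.09 for the subunits and from -0.15 to 0.16 for all measured genes. Among the genes of at least 10 CPM, 1.99% passed 2-fold and 17.4% the small limit. Neither set was matched to the subunits for level: the least-counted measured subunit, NDUFA3, stood at 16.1 CPM in both libraries. Ratios of genes with fewer counts spread more by counting error alone. The part of depth in the narrower spread of the subunits was not tested. At this depth the counting interval of 16 subunits lay above 1, which is 20.8% against 21.1% of all measured genes, and that of 13 lay below 1, which is 16.9% against 21.2%.

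**Figure D1:**
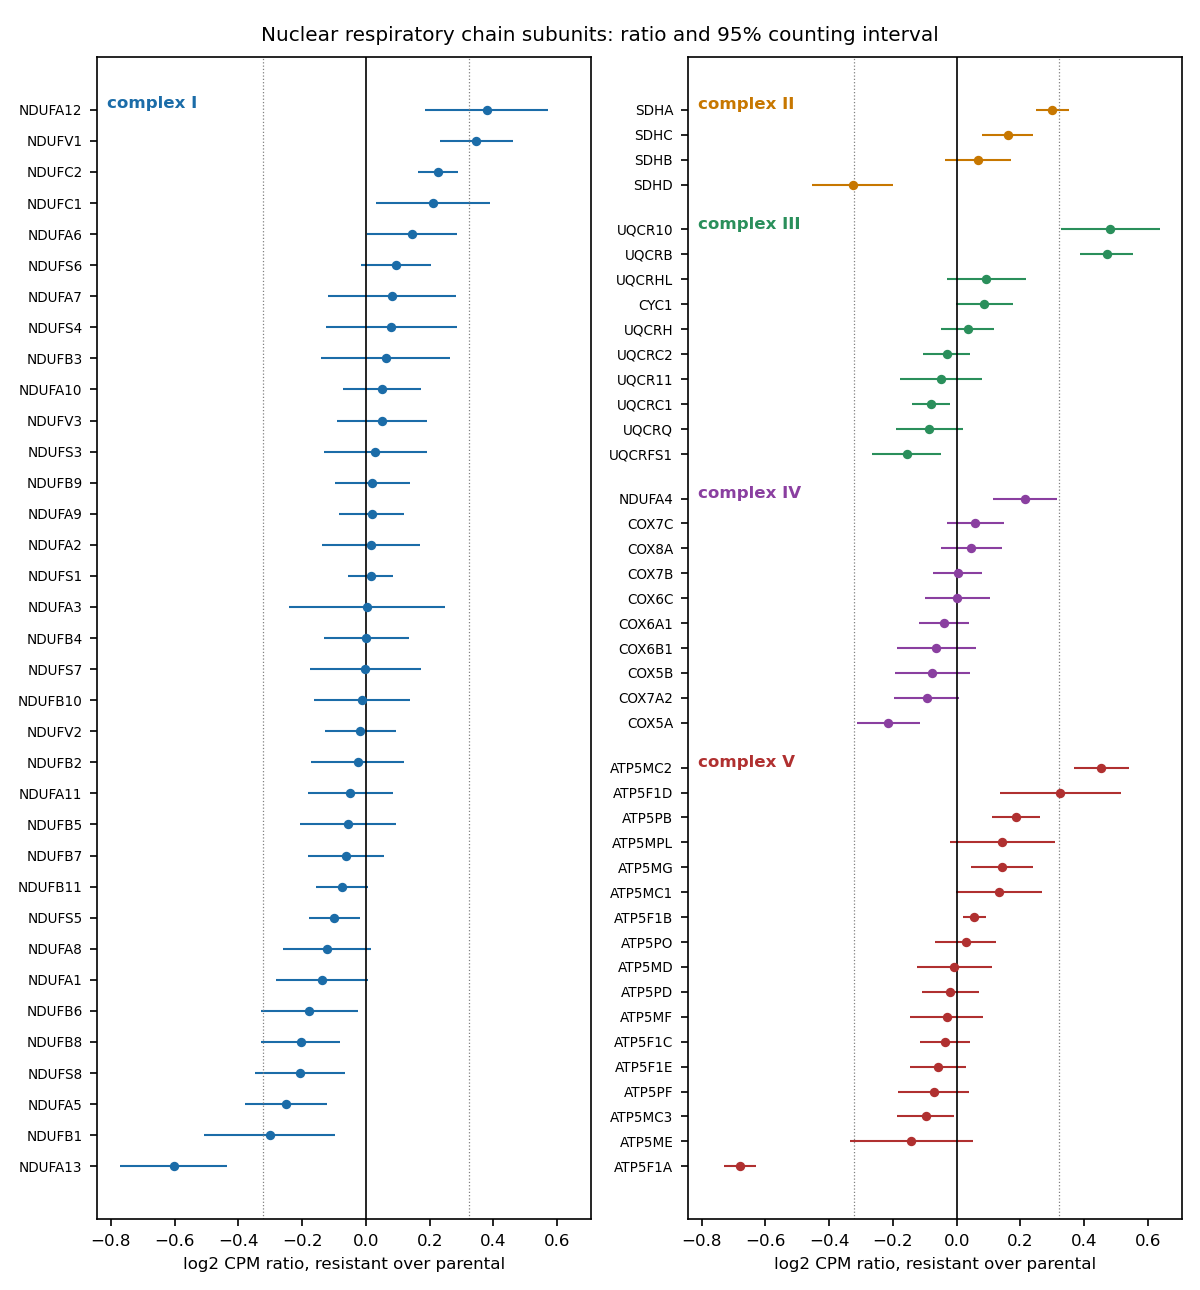
Log2 ratio of CPM without a pseudocount, resistant over parental, for 76 of the 77 measured nuclear subunits by complex, with the 95% counting interval as a bar and the small limit as dotted lines. ATP5F1A and NDUFA13 lie farthest to the left and UQCR10, UQCRB and ATP5MC2 farthest to the right. ATP5F1D and SDHD lie just past the lines here, where no pseudocount is used, and just inside the limit with it.

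**Figure D2:**
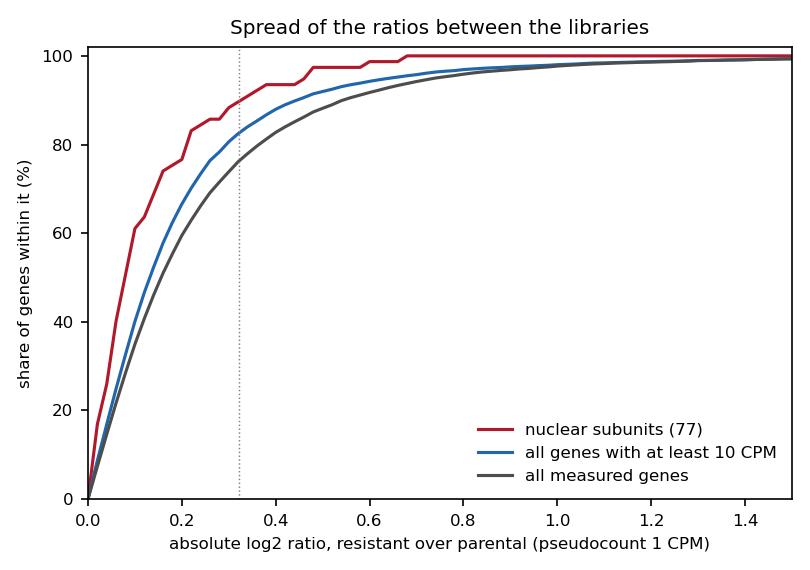
Share of genes, in percent, whose absolute log2 ratio is within the value on the horizontal axis, for the 77 subunits, all genes of at least 10 CPM and all measured genes. At the dotted line of the small limit the subunits stand at 90.9%, the better-counted genes at 82.6% and all measured genes at 76.3%.

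By complex, the summed folds lay close to 1, with complex II highest and complex V lowest. Complex II had 11556 counts in resistant and 11028 in parental cells, a fold of 1.13 with an interval of 1.10 to 1.16. Complex III had 19454 and 20354 counts, a fold of 1.03 with an interval of 1.01 to 1.05. Complex I had 38427 and 41289 counts, a fold of 1.01 with an interval of 0.992 to 1.02. Complex IV had 17172 and 18703 counts, a fold of 0.992 with an interval of 0.972 to 1.01. Complex V had 39940 and 44977 counts, a fold of 0.960 with an interval of 0.947 to 0.973. This order rested on single genes and on the scale. Without SDHA, complex II had a fold of 1.02, below that of complex III. With deposited FPKM as values, complex I was lowest at 0.966 and complex V stood at 0.995. Without ATP5F1A the other 17 genes summed to 34750 and 35996 counts, a fold of 1.04 with an interval of 1.03 to 1.06. The sums weigh abundant mRNAs most. The median log2 ratios, which do not, were 0.00 for complex I, 0.11 for complex II, 0.00 for complex III, -0.02 for complex IV and -0.01 for complex V.

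The subunits made from the mitochondrial genome stood slightly lower in resistant cells. These 13 genes had 914500 counts in resistant and 1055537 in parental cells, a fold of 0.937 with an interval of 0.934 to 0.939. By complex, their folds were 0.941 in complex I, 0.944 in complex III, 0.940 in complex IV and 0.851 in complex V. A log2 ratio below 0 was seen in 12 of the 13, against 50.3% of all measured genes, and the median was -0.11. MT-ND6, the 1 subunit of complex I on the light strand, had the lowest fold at 0.767, with 3880 counts in resistant and 5467 in parental cells. It was the only 1 of the 13 past the small limit, which 23.7% of all measured genes passed. MT-ND1 was the exception to the direction, with a fold of 1.05. MT-ATP6 overlaps MT-ATP8 and MT-CO3 on the mitochondrial genome, and MT-ND4 overlaps MT-ND4L. Reads may therefore be split between them, and the 13 rows are not 13 separate observations.

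**Figure D3:**
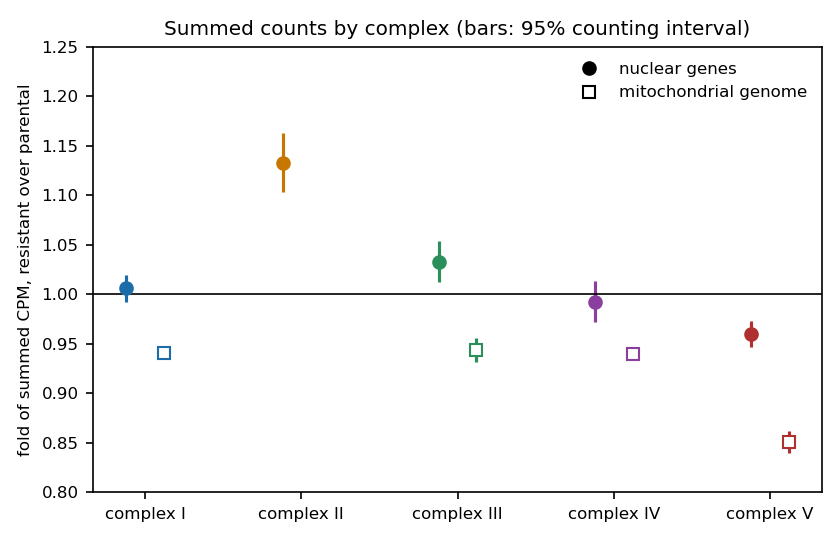
Fold of summed CPM, resistant over parental, for the nuclear genes of each complex (filled circles) and the mitochondrially encoded genes (open squares), with the 95% counting interval as a bar. Complex II stands highest at 1.13, and the 4 mitochondrially encoded sums lie between 0.851 and 0.944.

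Letters known to be bound by NRF1, by ETS factors and by YY1 were looked for upstream of the subunit genes. Upstream windows of 250 bases, from RefSeq on GRCh38.p14, were found for 67 subunit genes, 63 of them measured. The windows were searched on both strands for GCATGCG, from the core of the NRF1 site, whose reverse complement is CGCATGC. It was found in 12 of 63 windows, or 19.05%, against 974 of 27305 windows in the whole table, or 3.57%, a table that also holds noncoding genes. CCGGAAG, the core of the ETS factors such as GABPA, with CTTCCGG on the other strand, was found in 17, or 27.0%, against 8.82%. AAGATGG, the core of the YY1 motif, with CCATCTT on the other strand, was found in 4, or 6.35%, against 3.77%. Such a match describes letters and does not show that a factor was bound. Of the 63 windows, 60 overlap an exon of some transcript in GENCODE 29, so only the 30 bases around each NRF1 match are shown. Capitals mark the matched letters, and where both strands match, the 2 matches overlap by all but 1 base. COX6A1 has further matches outside the bases shown. They are ordered by the log2 ratio, resistant over parental.
ATP5MC2, chr12:53676106-53676135, minus strand: ggcccgggtcaCGCATGCGctgagccttcc
NDUFA6, chr22:42090921-42090950, minus strand: ttctgtagatgaGCATGCGcagcacccacc
NDUFS6, chr5:1801351-1801380, plus strand: cagaagccgtgCGCATGCGttagcgctaag
SDHB, chr1:17054215-17054244, minus strand: gaagccaaatggGCATGCGccgctactgcg
NDUFB4, chr3:120596167-120596196, plus strand: agagcacttcgCGCATGCGcatatcaccga
NDUFS7, chr19:1383822-1383851, plus strand: gttccggtttcCGCATGCGctccgagccgc
ATP5F1C, chr10:7788145-7788174, plus strand: gggagcttcggCGCATGCGcgctgaggcct
COX6A1, chr12:120437928-120437957, plus strand: ggaggtgcagagCGCATGCtctctcttgcc
ATP5PF, chr21:25735155-25735184, minus strand: cactcaaagagCGCATGCGtacagagcaag
COX5B, chr2:97645914-97645943, plus strand: aggcagagctggGCATGCGcaatttccgcc
ATP5ME, chr4:674335-674364, minus strand: gccgctgacggCGCATGCGtgcgcccagct
SDHD, chr11:112086753-112086782, plus strand: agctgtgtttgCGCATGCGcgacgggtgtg
The log2 ratios of the genes that share these letters ran from -0.32 in SDHD to 0.45 in ATP5MC2, with a median of -0.02. Apart from SDHD and ATP5MC2, they lay between -0.14 in ATP5ME and 0.14 in NDUFA6. The 51 measured genes without the match ran from -0.68 to 0.47, with a median of -0.01. ATP5MC2 and ATP5PF, both of ATP synthase, carry the same 8 letters and had folds of 1.37 and 0.951.

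UQCR10, the subunit with the highest ratio, has none of the 3 cores in its window, which overlaps no annotated exon and is shown whole because it ends directly at the start of the gene. This says only that these letters are not in this window.
UQCR10, chr22:29767119-29767368, plus strand: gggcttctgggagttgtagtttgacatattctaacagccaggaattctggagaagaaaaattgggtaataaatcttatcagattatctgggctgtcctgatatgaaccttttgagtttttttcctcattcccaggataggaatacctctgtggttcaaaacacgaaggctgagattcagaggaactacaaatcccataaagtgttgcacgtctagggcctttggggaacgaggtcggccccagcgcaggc
The windows of ATP5F1A, NDUFA12 and NDUFV1 held no NRF1 core either.

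The mRNA of factors known to act on these genes was also compared. In a list of 14 regulators of mitochondrial biogenesis, the median log2 ratio was 0.01. The small limit was passed by 1 of them, against 23.7% of all measured genes. That gene was ESRRA, an orphan nuclear receptor that drives oxidative genes, with 937 counts in resistant and 638 in parental cells, a fold of 1.59 with an interval of 1.43 to 1.76. ESRRA overlaps TRMT112 on the opposite strand, and the part of this overlap in its value was not tested. NRF1 had a fold of 1.05, GABPA 0.980, TFAM, the packaging and transcription factor of the mitochondrial genome, 1.06, and YY1 0.907. PPARGC1A, the coactivator of these factors, had 597 counts in resistant and 744 in parental cells, a fold of 0.867 with an interval of 0.778 to 0.967. Its relative PPARGC1B had a fold of 1.21, with an interval of 1.01 to 1.45.

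Complex I, the largest complex, had 2 of 36 subunits higher and 1 lower past the small limit. These are 5.56% and 2.78%, against 12.6% and 11.1% of all measured genes. Its 3 subunits of the NADH-oxidising arm summed to a fold of 1.06, with an interval of 1.02 to 1.10. NDUFV1, which binds the flavin and the NADH, had 1356 counts in resistant and 1153 in parental cells, and stood higher with a fold of 1.27 and an interval of 1.17 to 1.38. Its partner NDUFV2 had 1265 and 1384 counts, a fold of 0.988 with an interval of 0.915 to 1.07. The count ratio of NDUFV1 to NDUFV2 was therefore 1.07 in resistant cells, against 0.833 in parental cells. NDUFS1, an iron-sulfur subunit of the same arm, had 3162 and 3382 counts, a fold of 1.01.

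On the ubiquinone side, NDUFS3 had a fold of 1.02 and NDUFS7 a fold of 0.999. NDUFS8, which carries iron-sulfur clusters, was lower with 745 and 929 counts, a fold of 0.867 with an interval of 0.786 to 0.956. None of these 3 passed the small limit. The 29 accessory subunits, which surround the core and take part in assembly and stability, summed to a fold of 0.995 with an interval of 0.979 to 1.01.

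NDUFA12, an accessory subunit of the peripheral arm, had the highest ratio of complex I, with 487 counts in resistant and 405 in parental cells, a log2 ratio of 0.36 and a fold with an interval of 1.14 to 1.49. NDUFA13, also known as GRIM-19 and needed for assembly of complex I, had the lowest, with 464 counts in resistant and 762 in parental cells, a fold of 0.658 with an interval of 0.585 to 0.740. NDUFA13 shares exons on the same strand with YJEFN3, at 189 and 109 counts, and with AC011448.1, at 269 and 170 counts, both of them higher in resistant cells. The 3 rows together had 922 counts in resistant and 1041 in parental cells, a fold of 0.957 with an interval of 0.875 to 1.05, so the lower value of NDUFA13 was not seen over its locus.

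Among the other accessory subunits, none passed the small limit. NDUFB1 had 340 counts in resistant and 453 in parental cells, a fold of 0.811 with an interval of 0.703 to 0.936. NDUFA5 had 866 and 1114 counts, a fold of 0.840 with an interval of 0.768 to 0.919. NDUFC1 had 534 and 499 counts, a fold of 1.16 with an interval of 1.02 to 1.31. Apart from those named above and NDUFC2, NDUFA11 and NDUFB8, described next, the accessory subunits had folds between 0.884 in NDUFB6 and 1.11 in NDUFA6, and those nearest to 1 were NDUFB4 and NDUFA3, with 877 and 270 counts in resistant cells against 947 and 291 in parental cells.

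NDUFC2, a membrane subunit, is a second case where the row alone and the locus differ. It had 4275 counts in resistant and 3955 in parental cells, a fold of 1.17, while its read-through row NDUFC2-KCTD14 had 324 and 950 counts. Together they had 4599 and 4905 counts, a fold of 1.01 with an interval of 0.973 to 1.06. For NDUFA11 the row had a fold of 0.966 and the sum with AC024592.3 a fold of 1.14, and for NDUFB8 the row had 0.868 and the sum with AL133352.1 had 0.840. In all, 14 of the 77 measured subunits share exons with another row on the same strand and 63 do not. Whether the counting used strand is not known from the labels or the file headers.

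Complex II, the succinate dehydrogenase of the citric acid cycle, is made only from nuclear genes, and its subunits differed in direction. SDHA, the flavoprotein that oxidises succinate, had 6650 counts in resistant and 5839 in parental cells, a fold of 1.23 with an interval of 1.19 to 1.28. SDHB, the iron-sulfur subunit, had 1487 and 1534 counts, a fold of 1.05 with an interval of 0.975 to 1.13. SDHC, a membrane anchor, had 2525 and 2443 counts, a fold of 1.12 with an interval of 1.06 to 1.18. SDHD, the other anchor, had 894 and 1212 counts, a fold of 0.797 with an interval of 0.731 to 0.870. SDHA and SDHC were thus higher, SDHD lower, and the interval of SDHB included 1. The count ratio of SDHC to SDHD was 2.82 in resistant cells, against 2.02 in parental cells.

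None of the 4 passed the small limit, SDHD lying just inside it at -0.321. SDHA has copies elsewhere in the genome, so reads may be split among them. SDHAP1 had 486 counts in resistant and 435 in parental cells, SDHAP2 had 35 and 45, and SDHAP3 had 101 and 128. SDHD overlaps TIMM8B, an import chaperone on the opposite strand, which had 522 and 943 counts and a fold of 0.598. Its copy SDHDP6 had 241 and 321 counts. The part of this overlap in the value of SDHD was not tested.

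Complex III held the 2 highest ratios of the whole chain, both in its small subunits. UQCR10, a small subunit next to cytochrome c1, had 792 counts in resistant and 613 in parental cells, a fold of 1.397 with an interval of 1.26 to 1.55. UQCRB, a subunit that binds near ubiquinone, had 2639 and 2059 counts, a fold of 1.39 with an interval of 1.31 to 1.47. The other 3 small subunits were close to 1: UQCRH, the hinge protein, with a fold of 1.02, UQCR11 with 0.966 and UQCRQ with 0.942. The 5 small subunits summed to 8043 and 7724 counts, a fold of 1.13 with an interval of 1.09 to 1.16.

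The subunits of complex III that carry the redox groups or form the large core did not follow UQCR10 and UQCRB. CYC1, cytochrome c1, had 2016 counts in resistant and 2052 in parental cells, a fold of 1.06 with an interval of 0.998 to 1.13. UQCRFS1, the Rieske iron-sulfur protein, had 1266 and 1526 counts, a fold of 0.897 with an interval of 0.832 to 0.967, and its copy UQCRFS1P1 had 176 and 238 counts. The core proteins UQCRC1 and UQCRC2 had folds of 0.945 and 0.978. UQCRHL, a near copy of UQCRH, had 1057 and 1071 counts, so reads of the pair cannot be assigned with certainty.

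Genes next to UQCR10 and UQCRB were spread to both sides of 0. The 6 measured genes nearest to UQCR10 on chromosome 22, 3 on each side, had log2 ratios from -0.09 to 0.54, with a median of 0.17. The highest of them, NF2, lay above the 0.47 of UQCR10 itself. The genes nearest to UQCRB ran from -0.29 to 0.14, with a median of -0.06, below the 0.47 of UQCRB itself.

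Complex IV had the narrowest spread, with 0.11 on the log2 scale between its quartiles. None of its 10 measured subunits passed the small limit, and their folds ran from 0.862 in COX5A to 1.16 in NDUFA4. COX5A, a matrix subunit, had 1474 counts in resistant and 1848 in parental cells, with an interval of 0.805 to 0.924. NDUFA4 had 1646 and 1534 counts, with an interval of 1.08 to 1.24. COX6C and COX7B had folds of 1.001 and 1.002, and COX5B, COX6A1, COX6B1, COX7A2, COX7C and COX8A lay between 0.937 and 1.04. COX4I1, a subunit known to bind ATP that is outside the symbol rule, was also lower, with 1669 and 2167 counts, a fold of 0.833 with an interval of 0.781 to 0.888.

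The tissue isoforms of complex IV were almost without counts. COX6A2 of muscle and heart and COX7B2 had 0 counts in both libraries, and COX4I2 of lung, outside the symbol rule, also had 0 in both. COX7A1 of muscle had 1 count in resistant and 0 in parental cells, and COX8C of testis had 2 and 0. COX6B2 of testis had 11 counts in resistant and 0 in parental cells, at least 3.96-fold higher against a floor of 3 counts in the parental library, which is 0.166 CPM there. In the authors' deposited table, COX6B2 was the only 1 of the 79 subunits compared that was called, as higher in resistant cells, against 492 of 21518 genes. Its level of 0.656 CPM was below the limit set for a measured gene. ATP5MGL, a copy of the ATP5MG gene, had 1 count in resistant and 0 in parental cells.

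Complex V held the lowest ratio of the chain, in the α subunit of its catalytic head. ATP5F1A, on chr18:46080248-46104334 (minus strand, GRCh38), had 5190 counts in resistant and 8981 in parental cells, or 309.6 and 495.6 CPM. The fold was 0.625 with an interval of 0.604 to 0.646, and the log2 ratio was -0.68. ATP5F1B, the catalytic β subunit, which is paired with α in equal number in the enzyme, had 11662 and 12131 counts, a fold of 1.04 with an interval of 1.01 to 1.07. The count ratio of ATP5F1A to ATP5F1B was thus 0.445 in resistant cells, with an interval of 0.431 to 0.460, against 0.740 in parental cells, with an interval of 0.720 to 0.761. The intervals do not overlap.

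The lower value of ATP5F1A was not shared by the genes around it. The 6 nearest measured genes, 3 on each side, had log2 ratios from -0.19 to 0.29, with a median of 0.07. HAUS1, a spindle protein whose gene overlaps ATP5F1A on the opposite strand, had 673 counts in resistant and 759 in parental cells, a fold of 0.958 with an interval of 0.863 to 1.06. No row shared exons with ATP5F1A on the same strand, so its value does not depend on such a row.

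The other subunits of the catalytic head did not follow the α subunit. ATP5F1C, the γ subunit of the rotating shaft, had 2458 counts in resistant and 2724 in parental cells, a fold of 0.975. ATP5F1D, the δ subunit, had 502 and 433 counts, a fold of 1.253 with an interval of 1.10 to 1.43, and a log2 ratio of 0.31, just inside the limit of 0.322. ATP5F1E, the ε subunit, had 2001 and 2252 counts, a fold of 0.960. The 5 genes of the head summed to a fold of 0.889, with an interval of 0.873 to 0.905.

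The c ring, the proton-driven rotor of ATP synthase, is encoded by 3 genes whose mature proteins are known to be identical, and their shares differed between the libraries. ATP5MC2 had 2471 counts in resistant and 1950 in parental cells, a fold of 1.37 with an interval of 1.29 to 1.45. ATP5MC1 had 908 and 895 counts, a fold of 1.10 with an interval of 0.999 to 1.20. ATP5MC3 had 1858 and 2149 counts, a fold of 0.935 with an interval of 0.878 to 0.995. Of all c-ring counts, ATP5MC2 gave 47.2% in resistant cells, with an exact interval of 45.8 to 48.5, against 39.0% in parental cells, with 37.7 to 40.4. ATP5MC3 gave 35.5% against 43.0%, and ATP5MC1 17.3% against 17.9%. By counts, ATP5MC2 led in resistant cells and ATP5MC3 in parental cells, but this order of levels depends on the length used: in deposited FPKM, ATP5MC2 led in both, with 20.3 against 13.5 FPKM for ATP5MC3 in resistant cells and 14.9 against 14.5 FPKM in parental cells. The summed c-ring counts gave a fold of 1.13, with an interval of 1.09 to 1.18.

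No row of a stator or membrane gene of complex V passed the small limit by itself. The 4 stator genes summed to a fold of 1.04, with an interval of 1.01 to 1.07. Among them ATP5PB, the b subunit, had 2859 counts in resistant and 2717 in parental cells, a fold of 1.14 with an interval of 1.08 to 1.20, while ATP5PD, ATP5PF and ATP5PO had folds of 0.986, 0.951 and 1.02. The 5 small membrane subunits summed to 1.03, with an interval of 0.991 to 1.07, and ranged from 0.906 in ATP5ME to 1.10 in ATP5MPL. The interval of ATP5MG, at a fold of 1.10, was 1.03 to 1.18. ATP5MF had 1200 and 1326 counts, a fold of 0.978. Its read-through row ATP5MF-PTCD1 had 0 counts in resistant and 411 in parental cells, and PTCD1 had 605 and 255. ATP5MF summed with the read-through row alone had 1200 and 1737 counts, a fold of 0.747 with an interval of 0.693 to 0.804. The 3 rows together had 1805 and 1992 counts, a fold of 0.979 with an interval of 0.919 to 1.04. The value for ATP5MF thus depends on which rows are summed, so no direction is given for it.

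**Figure D4:**
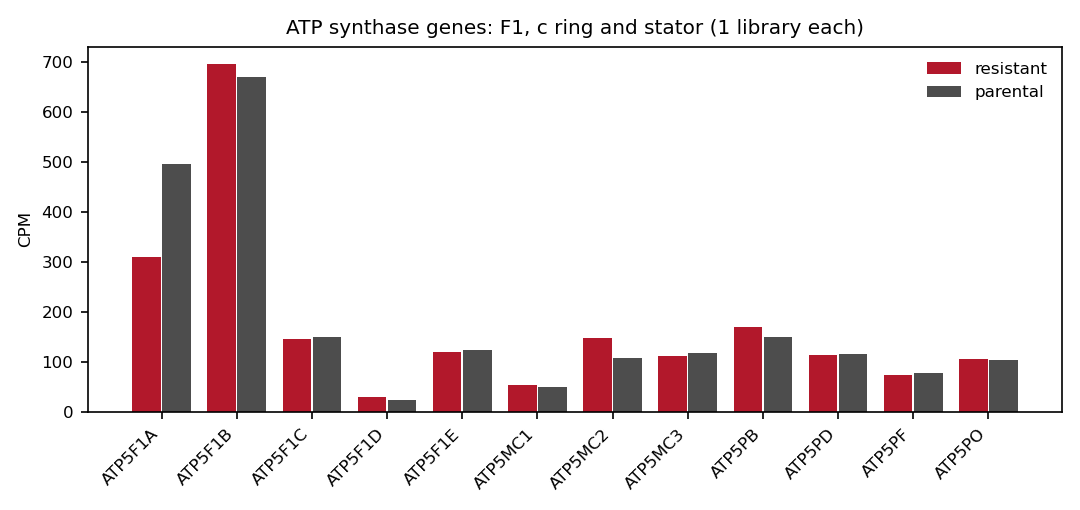
Level in CPM of the catalytic head, c-ring and stator genes of ATP synthase, with 1 bar for the resistant and 1 for the parental library, and no error bar because each is 1 library. ATP5F1A stands at 309.6 CPM in resistant and 495.6 CPM in parental cells, and ATP5F1B at 696 and 669 CPM.

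Levels between genes were compared per length. The length by which the deposited FPKM divides was at the median 4.28 times that of the shortest principal transcript in GENCODE 29 over the 77 genes, ranging from equal lengths to 18.1 times. CPM per kilobase of that transcript is therefore also given. On the second scale the levels ran from NDUFV3, an accessory subunit of complex I, at 10.2 in resistant and 9.85 in parental cells, to ATP5F1B at 378 and 364, which is 37.1-fold and 36.9-fold. COX7B, of complex IV, stood next at 362 and 361. On the FPKM scale the highest was NDUFS5 at 223 and 240 FPKM and the lowest NDUFS7 at 1.65 and 1.66 FPKM. The 2 scales ranked the genes with a Spearman correlation of 0.672 over 77 genes in resistant cells, a description over genes that share the same counts. The order of genes on such a scale depends on the length used.

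The levels per length were lowest at the median in complex I and highest in complex IV. On CPM per kilobase of the principal transcript, the medians were 52.0 in resistant and 53.9 in parental cells for complex I, and 57.0 and 60.0 for complex II. They were 80.1 and 78.0 for complex III, 167 and 176 for complex IV, and 136 and 139 for complex V. The order of the complexes was the same in both libraries. Log2 levels of the 77 genes in both libraries had a Spearman correlation of 0.985, again over genes.

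**Figure D5:**
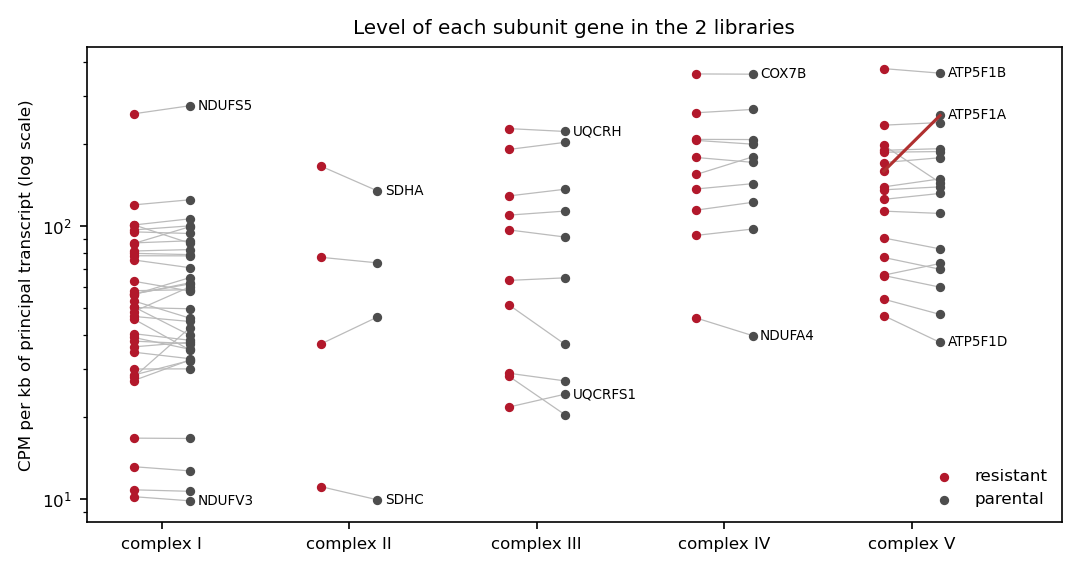
Level of each measured subunit in CPM per kilobase of the shortest principal transcript, on a log scale, with the resistant library on the left and the parental library on the right of each pair, joined by a line. Most lines are close to flat, and the line of ATP5F1A, in red, joins 159 in resistant and 255 in parental cells.

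The genes that help to build the complexes had a median absolute log2 ratio of 0.15, against 0.08 for the subunits. This was near the 0.16 of all measured genes and the 0.13 of genes with at least 10 CPM. The lowest counts of these assembly genes were 80 in resistant and 120 in parental cells. Those of the measured subunits were 270 and 291. Fewer counts widen ratios by counting error, and the part of depth in this contrast was not tested. In a list of 52 assembly factors, all measured, the median log2 ratio was -0.05. Past the small limit, 2 were higher and 6 lower, against 12.6% higher and 11.1% lower over all measured genes. Within the limit lay 84.6% of the factors, against 76.3% of all measured genes. Past 2-fold, 1 was lower, against 0.994%. That gene was SCO2, a copper chaperone of complex IV, with 80 counts in resistant and 215 in parental cells, a fold of 0.402 with an interval of 0.307 to 0.522. COX11, another copper factor of complex IV, was higher with 1471 and 1023 counts, a fold of 1.55, and PET100 was lower with 154 and 244 counts, a fold of 0.682. Among factors of complex III, TTC19 had 522 and 988 counts, a fold of 0.571 with an interval of 0.513 to 0.636, and UQCC1 a fold of 0.748. BCS1L, which inserts the Rieske protein, was higher with 291 and 200 counts, a fold of 1.57 with an interval of 1.31 to 1.89. SCO2, COX11, PET100, TTC19 and BCS1L each overlap an expressed gene on the opposite strand. The part of these overlaps in their values was not tested. Of complex I factors ECSIT had a fold of 0.761, and no row of a complex II or V factor passed the small limit. FMC1, a factor of complex V, had 173 and 214 counts, a fold of 0.874. It shares exons with its read-through row FMC1-LUC7L2, at 824 and 190 counts, and with LUC7L2, at 1701 and 2540 counts. FMC1 summed with the read-through row gave a fold of 2.67, and summed with LUC7L2 a fold of 0.736, so no direction is given for it.

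Genes around the chain gave 1 large difference. Of 13 tricarboxylic acid cycle genes, CS, the citrate synthase, had 3619 counts in resistant and 1372 in parental cells, a fold of 2.85 with an interval of 2.68 to 3.04, and no other passed the small limit. Over all measured genes, 1.31% were higher past 2-fold. The median log2 ratio of the 13 cycle genes was 0.01. CS shares exons with AC073896.1, at 240 and 372 counts, and the sum gave a fold of 2.39. CYCS, the cytochrome c that carries electrons from complex III to IV, had 3619 and 3063 counts, a fold of 1.28 with an interval of 1.22 to 1.34. Of 11 genes for ubiquinone synthesis, COQ6 alone passed the small limit, with a fold of 0.773, and their median log2 ratio was -0.17. Of 7 carriers of adenine nucleotides and phosphate, including the outer membrane channels, VDAC2 alone passed it, with a fold of 0.769, and their median was -0.07. Over all measured genes, 23.7% passed the small limit in either direction, so 1 gene in lists of this size does not stand out.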

How the data were processed

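The authors deposited 3 tables of 1 resistant and 1 parental library with whole-number counts per gene, not normalized, per the file headers. Per the submitters' processing notes, bcl2fastq 2.19, HISAT2 2.0.4 and StringTie 1.3.0 were used on GRCh38. Annotation release and strand setting: not given in the sources used here. In GENCODE 29, 80 of the 83 genes had identical coordinates. The authors' deposited FPKM was used only for levels and as an alternative. From the authors' deposited comparison (log2 ratio, p-value, q-value, test not stated) only the call was used.

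Counts were scaled with TMM factors of edgeR 4.0.16 in R 4.3.3, which were 0.997 for the resistant and 1.00 for the parental library, and no model was fitted. Log2 ratios use a pseudocount of 1 CPM. A count of 0 allows up to 0.179 CPM in the resistant and 0.166 CPM in the parental library, the worth of 3 counts. PCR copies are not independent molecules. The calculations were tested on simulated data. Alternatives included DESeq2 1.42.0 size factors, other pseudocounts and the sums with overlapping rows. Subunits named are the highest, lowest, core and called ones of each complex, with the isoform pairs, and up to 2 of the highest and lowest genes of each further list. The members and lists were chosen with earlier results of these data known. The values of 1 subunit are not reported here.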

Additional observations from a re-analysis of the deposited data

How the results depend on the processing

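Over 16 results, 215 alternative values were computed. Of these, 20 lay outside the interval of the value reported, all of them summed folds. The medians were held against a wider band, -0.100 to 0.104 for all subunits. The numbers of subunits past a limit or above 0 had no interval, so they could not fall outside one. Only the summed folds were thus open to a close check of this kind. The sum of all subunits, 1.003, became 0.991 with DESeq2 size factors, 0.989 with the deposited FPKM, 0.983 without the most-counted gene and 1.03 without ATP5F1A. Complex I became 0.966 with FPKM, 0.992 with the read-through row and 0.989 without its most-counted gene. Complex II became 1.07 with FPKM, 1.02 without its most-counted gene, SDHA, and 1.17 without SDHD, which shares exons. Complex III became 1.06 without its most-counted gene. Complex V became 0.995 with FPKM, 0.931 without its most-counted gene, 0.940 without the genes that share exons, and 1.04, on the other side of 1, without ATP5F1A, an alternative chosen after the data were seen. The mitochondrially encoded sum became 0.925 with DESeq2 size factors, 0.931 with library size alone, 0.932 with upper-quartile factors, 0.917 with FPKM and 0.930 without its most-counted gene. The number of subunits past 2-fold was 0 under all 15 alternatives, the number past the small limit ran from 5 to 9, and the number above 0 from 32 to 44, with 40 as reported, 34 with DESeq2 size factors and 36 with library size alone, so the larger direction depends on the scaling. The median of all subunits ran from -0.02 to 0.00. The cause of the shifts under other scalings and FPKM was not tested. Leaving out a replicate was not possible with 1 library a group. No paired analysis was possible because each group holds 1 library. Depth limits the isoforms with under 3 counts, whose level cannot be told from 0.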
